A study of Mus musculus with 22 samples.

Results

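The expression of 9 genes that write, read or erase DNA methylation was examined in neurons and glia of the mouse hippocampus contralateral to a kainate injection (CLH). The genes were taken by name from the deposited table of gene counts: the writers *Dnmt1*, *Dnmt3a* and *Dnmt3b*, the readers *Mbd1* and *Uhrf1*, and the erasers *Tet1*, *Tet2*, *Tet3* and *Tdg*. Each name matched 1 of the 53379 genes of the table. All 9 were among the 40714 genes that passed the filter on low counts and were tested.

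The animals were adult male C57/BL6N mice without any genetic change. Kainate, or NaCl in the sham group, was injected above the right hippocampus, and only kainate animals with convulsive seizures were kept. The left hippocampi were taken at 24 h, so that one acute time point was covered. The titles and the design name the left side, whereas the extraction text of the labels names the right one. The hippocampi of 8 mice per treatment were combined into 3 pools. Nuclei were sorted by the neuronal nuclear protein NeuN, and the NeuN+ fraction is called neurons and the NeuN– fraction glia. The NeuN– fraction can also hold endothelial cells, pericytes and neurons without NeuN. The 11 mRNAseq libraries comprised 3 of kainate neurons, 3 of sham neurons, 3 of kainate glia and 2 of sham glia, since the preparation of sham glia replicate 2 failed.

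The libraries held between 12058875 and 45428465 counted reads. RNA input was 0.05 ng, amplified over 15 PCR cycles, for replicate 2 of the kainate glia and replicate 1 of the sham glia. It was 1 ng, over 10 cycles, for all others. Markers of cell types matched the sort: all 7 neuronal markers tested were higher in neurons, and 26 of 27 markers of glial, endothelial and pericyte identity were higher in glia. A gene was called when its false discovery rate (FDR) was below 0.25, the threshold of the study, in an edgeR quasi-likelihood test on all 11 libraries. In bulk nuclei, fewer cells of a type and less RNA per cell cannot be told apart. Nothing here measures DNA methylation itself.

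DNA methylation is placed mainly on cytosines that are followed by a guanine (CpG sites). DNMT3A and DNMT3B methylate new sites, and DNMT1 copies the pattern to the new strand after replication, to which it is guided by UHRF1, a reader of hemimethylated DNA. MBD1 binds methylated CpG sites and represses transcription. The TET enzymes oxidize methylcytosine, and the glycosylase TDG cuts out the more oxidized forms, which are then replaced by unmethylated cytosine. Neurons do not divide, and are known for high levels of hydroxymethylcytosine, the first product of the TET enzymes.

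*Tet1* and *Tet3* carry the kainate results that follow, and *Tet2* is shown beside them as the third gene of the family. The bases just before their RefSeq start sites (GRCm38.p6) differ in CpG content. Each stretch has 75 bases, lies on the minus strand, holds no annotated exon and is written 5′ to 3′ with CpG sites in capitals. The *Tet2* stretch, chr3:133544391-133544465, held 15 CpG sites, the *Tet3* stretch, chr6:83441679-83441753, held 9, and the *Tet1* stretch, chr10:62887325-62887399, held 6.
Tet2: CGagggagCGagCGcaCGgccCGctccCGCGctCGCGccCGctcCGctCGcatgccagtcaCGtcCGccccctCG
Tet3: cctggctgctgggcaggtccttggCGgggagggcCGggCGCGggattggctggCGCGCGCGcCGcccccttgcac
Tet1: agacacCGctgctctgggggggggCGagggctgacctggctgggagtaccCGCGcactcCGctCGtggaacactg

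In the whole promoter window of 300 bases (250 before and 50 after the start), *Tet2* had 57 CpG sites, more than 99.8% of the 32851 windows of the RefSeq table, whose median was 7. *Tet3* had 22, *Tet1* 17, *Dnmt3b* 30 and *Tdg* 26. Among genes with several windows, those of *Dnmt3a* had 46, 47 and 18 CpG sites, those of *Dnmt1* 2, 12 and 33, and those of *Uhrf1* 12 and 33. These are counts of letters in the reference and carry no test.

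*Mbd1*, *Dnmt3a*, *Tet2* and *Tet3* had the highest mean levels among the members in both sham groups, and *Dnmt3b* and *Uhrf1* the lowest. To compare genes, CPM (counts scaled to the size of the library) were divided by exon length in kilobases, where the median gene tested stood at 0.949 in sham neurons and 1.28 in sham glia. In sham neurons, *Mbd1* stood at 19.2 ± 0.583 CPM per kb (SD, n = 3), *Dnmt3a* at 17.4 ± 0.421, *Tet2* at 17.1 ± 3.13 and *Tet3* at 11.1 ± 1.43. *Tet2*, with its wider spread, could not be set apart from *Mbd1* and *Dnmt3a*. *Tdg* followed at 8.84 ± 4.0 and *Dnmt1* at 7.65 ± 0.519, and the spread of *Tdg* covered both *Tet3* and *Dnmt1*. *Tet1* at 2.27 ± 0.182, *Uhrf1* at 1.42 ± 0.789 and *Dnmt3b* at 1.10 ± 0.300 were the lowest. *Tet1* stood above *Dnmt3b* by more than their SDs, while *Uhrf1* overlapped with both. In sham glia (n = 2) *Dnmt3a* (14.0 ± 5.43), *Tet2* (11.7 ± 6.74), *Mbd1* (11.6 ± 3.61) and *Tet3* (9.29 ± 2.63) again led, but could not be ordered. *Tdg* (6.37 ± 0.298), *Dnmt1* (6.30 ± 0.792) and *Tet1* (5.47 ± 1.73) came next, followed by *Uhrf1* (2.22 ± 1.53) and *Dnmt3b* (2.02 ± 0.721). The lowest number of reads behind any value was 32, for *Uhrf1* in sham neurons replicate 1.

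**Figure D1:**
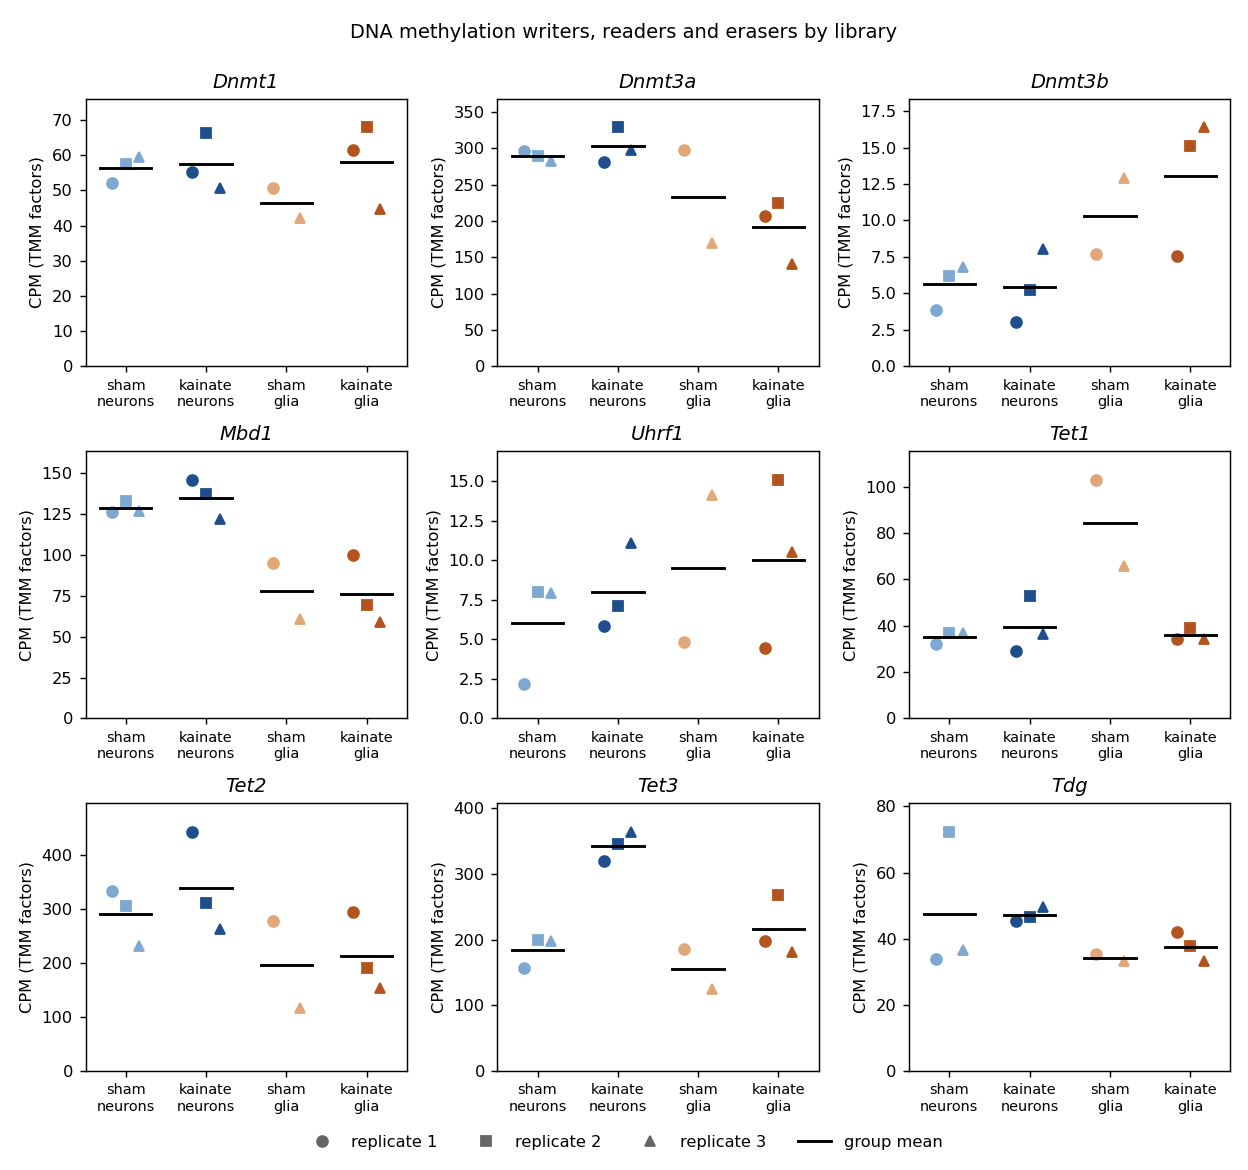
CPM (scaled by TMM factors) of the 9 genes in each of the 11 libraries, by group; each point is a library, its shape gives the replicate number and the bar the group mean, and each panel has its own vertical axis from 0. *Tet3* in kainate neurons (319 to 364 CPM) lay above every other library, and *Tet1* in sham glia (65.7 and 103 CPM) above every other library.

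The first comparison asked which of these genes differed between kainate and sham neurons. *Tet3*, which oxidizes methylcytosine, was the member with the clearest difference. *Tet3* lies on chromosome 6, from 83362373 to 83459084 on the minus strand (GRCm38, GENCODE M21). Its level was 319, 345 and 364 CPM in kainate neurons replicates 1, 2 and 3, and 157, 200 and 197 CPM in the sham neurons. The lowest kainate library thus stood above the highest sham library. Of all genes tested, 4.26% had kainate neuron libraries that were all above the sham neuron libraries. The log2 fold change was 0.89 ± 0.33 (SE, 95% CI 0.18 to 1.61), or 1.86-fold. The gene ranked 434 by p among the 40714 genes, and with an edgeR FDR of 1 *Tet3* was not called.

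The labels give a replicate number but do not say that equal numbers form a pair. In these same data, kainate and sham libraries of the same number deviated together, weakly for replicate 2 of the neurons (correlation 0.161). The test was therefore repeated with the replicate number as a block. The log2 fold change of *Tet3* was then 0.90 ± 0.18 and the edgeR FDR 0.000514, which called the gene, beside 3.19% of all genes called as higher in this fit. Within the replicate numbers, the log2 difference was 1.02, 0.79 and 0.89, higher in 3 of 3 pairs. The block left 3 residual degrees of freedom, and its error rested mainly on a prior of 48 degrees of freedom taken from all genes. DESeq2 without the block also called *Tet3* (adjusted p = 0.243), beside 1.66% of the 21722 genes to which it gave an adjusted p. Separate edgeR fits per cell type gave an FDR of 0.263. In the kainate neuron libraries the summed CPM of 5 microglial markers was 31.9 to 49.1, against 25.1 to 29.0 in sham neurons, and that of 5 astrocytic markers 212 to 284 against 152 to 213; no marker of either list was at 0 in a group. The single markers went both ways. None of 34 was called, and with the block 6 were higher and 4 lower. These were 3 of 5 astrocytic markers higher and 2 lower, 1 of 5 microglial markers higher and 1 lower, 1 of 5 oligodendrocytic markers lower, and 2 of 7 neuronal markers higher, the inhibitory neuron genes *Gad1* (0.61, edgeR FDR 0.051) and *Gad2* (0.60, FDR 0.0991). The part of these cells in the *Tet3* difference was not tested. *Tet3* stood at 124 to 268 CPM in the 5 glia libraries.

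None of the other 8 members was called in neurons, with or without the block. The other dioxygenases showed small differences with overlapping groups. *Tet2* was at 442, 311 and 262 CPM in kainate neurons and 333, 305 and 231 CPM in sham neurons (log2 fold change 0.23 ± 0.41), and *Tet1* at 28.9, 52.8 and 36.3 CPM against 31.9, 36.8 and 36.7 CPM (0.16 ± 0.33). The glycosylase gene *Tdg* ranged from 45.2 to 49.7 CPM in kainate neurons and from 33.9 to 72.3 CPM in sham neurons. The writers were almost level. *Dnmt3a* was at 281 to 329 CPM against 282 to 296 CPM, with a log2 fold change of 0.07 whose 95% CI ran from -0.67 to 0.80. *Dnmt1* was at 50.8 to 66.4 CPM against 52.2 to 59.6 CPM (95% CI of the log2 fold change -0.62 to 0.67). *Dnmt3b* was at 3.06 to 8.06 CPM against 3.89 to 6.8 CPM (-1.03 to 0.94). For the readers, the 95% CI was -0.63 to 0.77 for *Mbd1* (122 to 146 CPM against 126 to 133 CPM) and -0.86 to 1.66 for *Uhrf1* (5.83 to 11.1 CPM against 2.15 to 8.01 CPM). The upper bounds of these intervals were 1.6-fold for *Dnmt1* and 1.75-fold for *Dnmt3a*. In all, 0 of 9 members were called, and 1 had an unadjusted p below 0.05 (edgeR), as did 2.09% of all genes. Of all genes, 0.157% were called as higher and 0.00737% as lower. The median log2 fold change was 0.07 over the members and -0.01 over all genes.

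**Figure D2:**
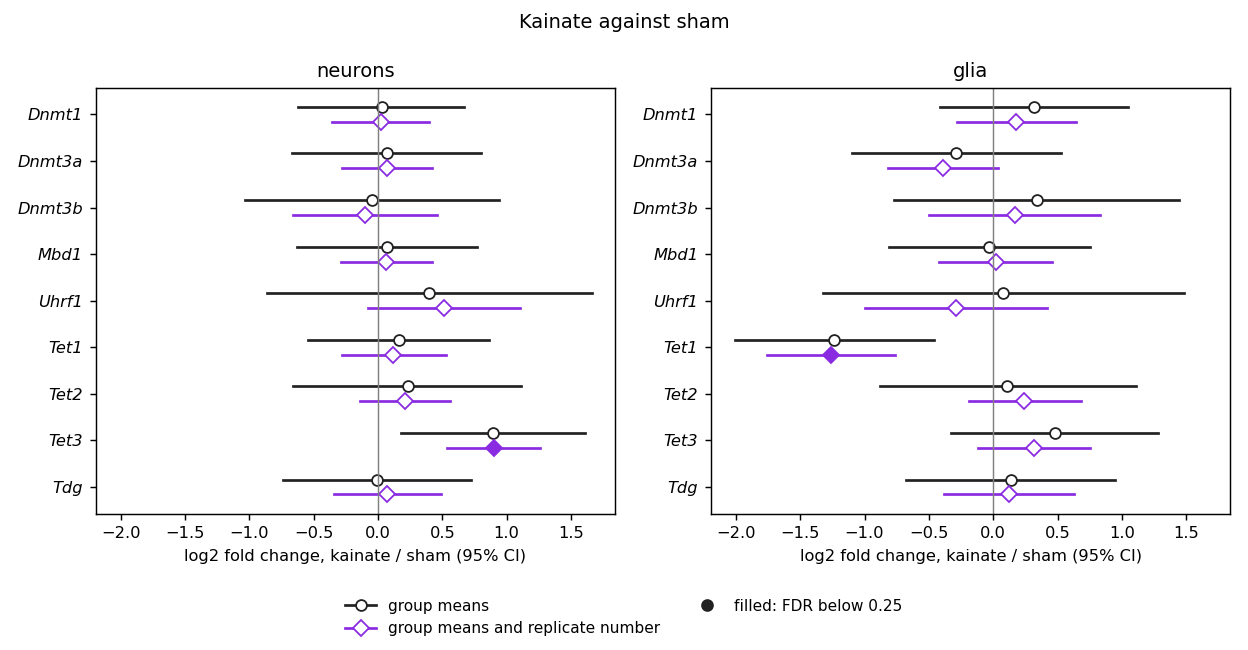
Log2 fold change of kainate over sham with its 95% confidence interval for the 9 genes, in neurons (left) and glia (right), from edgeR fits with the group means alone (circles) and with the replicate number as a block (diamonds); filled symbols have an FDR below 0.25. With the block, *Tet3* in neurons (0.90) and *Tet1* in glia (-1.26) were called, and no member was called without it.

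The 3 genes of the *Tet* family were then summed in each library, and their shares of the sum were read, in which the scaling between libraries cancels. The sum itself depends on that scaling. It was 39.7 to 47.2 CPM per kb in kainate neurons and 27.8 to 32.4 CPM per kb in sham neurons, and includes the difference in *Tet3* given above. In sham neurons *Tet2* gave 49.1 to 63.2% of this sum, *Tet3* 30.1 to 42.4% and *Tet1* 6.62 to 8.53%. The *Tet3* share was 40.4, 48.6 and 54.9% in kainate neurons replicates 1 to 3, against 30.1, 36.9 and 42.4% in the sham neurons of the same numbers. Each kainate share was above that of the same number, although the 2 groups overlapped. In glia, the *Tet1* share was 19.5 and 22.9% in the 2 sham libraries and 7.07, 8.45 and 9.97% in the kainate libraries, a range close to that of neurons (3.96 to 8.53%). Among the *Dnmt* genes, *Dnmt3a* held 64.3 to 69.4% of the family sum in the 6 neuron libraries and 47.6 to 68.0% in the 5 glia libraries. The *Dnmt1* share was 34.2 to 37.5% in kainate glia and 26.2 and 31.2% in sham glia, although the CPM of *Dnmt1* itself overlapped between these groups, and it was 26.1 to 30.2% in kainate neurons and 27.6 to 30.7% in sham neurons.

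**Figure D3:**
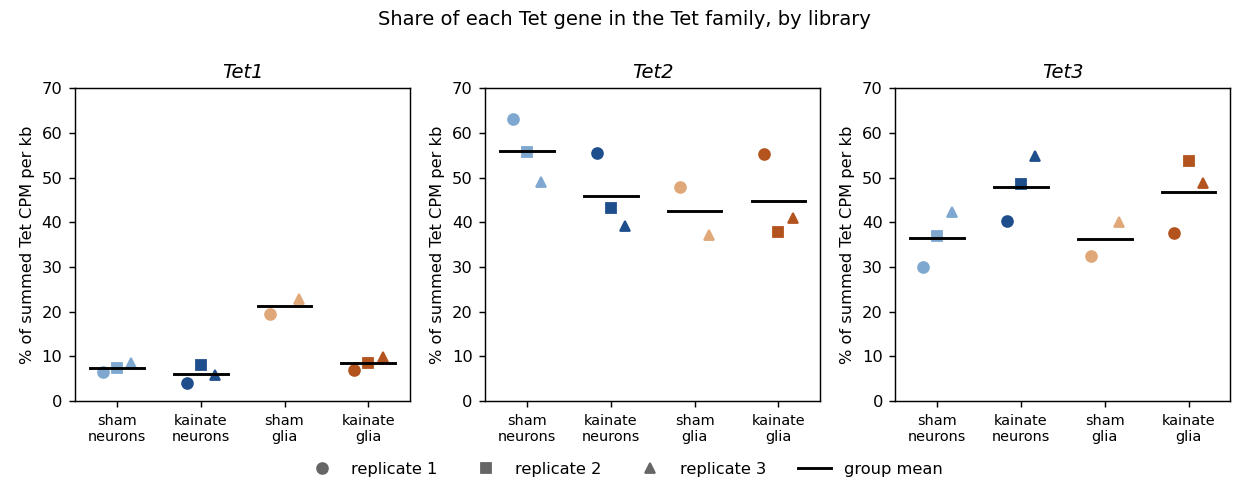
Share of *Tet1*, *Tet2* and *Tet3* in the summed CPM per kb of the 3 genes, in percent, for each of the 11 libraries; point shapes give the replicate number and bars the group means. The *Tet1* share of the sham glia (19.5 and 22.9%) stood above that of all other libraries, the highest of which was 9.97%.

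The second comparison set kainate glia against sham glia. *Tet1*, which has a DNA-binding CXXC domain beside its dioxygenase domain, was the member with the clearest difference. *Tet1* lies on chromosome 10, from 62804570 to 62908996 on the minus strand. It was at 34.4, 39.1 and 34.2 CPM in kainate glia replicates 1, 2 and 3, and at 103 and 65.7 CPM in sham glia replicates 1 and 3. All kainate libraries were below both sham libraries, which held for 3.52% of all genes tested. The log2 fold change was -1.24 ± 0.36 (SE, 95% CI -2.01 to -0.46), to 0.425 of the sham level. The gene ranked 153 by p, and with an edgeR FDR of 1 *Tet1* was not called. With the replicate number as a block it was -1.26 ± 0.25 at an edgeR FDR of 0.000592 and was called, beside 2.86% of all genes called as lower in that fit. The difference was -1.59 in the pair of replicate 1, where only the sham library had low RNA input, and -0.94 in that of replicate 3. Kainate glia replicate 2 has no sham partner and adds nothing to the difference estimated with the block.

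The sham level of *Tet1* rested on 2 libraries, of which the higher was one of low RNA input. Without sham glia replicate 1 the log2 fold change was -0.85, and without sham glia replicate 3 it was -1.54. Each of these fits kept a single sham glia library. The median over all genes was -0.11 in the first and 0.76 in the second, against 0.02 with all libraries. Without both libraries of low input the log2 fold change of *Tet1* was -0.92, also with a single sham glia library. In a separate fit of the glia it was -1.20 (edgeR FDR 1), with 0 genes called of all tested there. The study, which also analysed glia separately at this threshold, listed *Tet1* among its downregulated glial genes. DESeq2 called the gene (adjusted p = 0.0481), beside 1.43% of the 17780 genes to which it gave an adjusted p. Markers of glial cell types moved with *Tet1*. Of 34 cell type markers none was called between kainate and sham glia, but with the block 13 were lower and 1 higher. The 13 were 3 of 5 astrocytic, 2 of 5 microglial, 4 of 5 oligodendrocytic and 4 of 4 precursor markers, and the higher one was the neuronal gene *Gad1* (0.87, edgeR FDR 0.0188). The summed CPM was 276 to 1120 in kainate and 617 to 1780 in sham glia for precursors, 347 to 2270 against 959 to 3770 for astrocytes, 4100 to 25600 against 7760 to 36600 for oligodendrocytes, 463 to 1380 against 503 to 2630 for microglia and 558 to 823 against 521 to 694 for neurons; no marker was at 0 in a group. The part of these cell types in the *Tet1* difference was not tested.

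The other 8 members were not called in glia, with or without the block, and their groups overlapped. *Tet3* was at 198, 268 and 181 CPM in kainate glia and 186 and 124 CPM in sham glia (log2 fold change 0.48 ± 0.37). *Tet2* was at 294, 191 and 154 CPM against 277 and 116 CPM (0.11 ± 0.46). For *Tet2* the SD of each group exceeded the difference between the means. *Dnmt3a* was at 207, 225 and 141 CPM against 297 and 169 CPM (-0.29 ± 0.38). *Dnmt1* (44.8 to 68.0 CPM against 42.3 and 50.6 CPM), *Dnmt3b* (7.59 to 16.4 against 7.73 and 12.9 CPM), *Tdg* (33.2 to 41.9 against 33.1 and 35.3 CPM), *Mbd1* (58.8 to 100 against 60.7 and 94.9 CPM) and *Uhrf1* (4.45 to 15.1 against 4.86 and 14.1 CPM) had log2 fold changes between -0.03 and 0.34, each with a 95% CI that included 0. Thus 0 of 9 members were called, beside 0.0933% of all genes called as higher and 0.00737% as lower. An unadjusted edgeR p below 0.05 was found for 1 member and for 2.05% of all genes. The median log2 fold change was 0.11 over the members and 0.02 over all genes.

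Whether kainate acted differently in the 2 cell types was tested as an interaction. No member was called, beside 0.00246% of all genes in either direction, and 1 had an unadjusted edgeR p below 0.05, as did 0.909% of all genes. This was *Tet1*, whose kainate effect in neurons exceeded that in glia by 1.40 ± 0.49 on the log2 scale (95% CI 0.35 to 2.44, edgeR FDR 1). Blocking on the replicate number inside each cell type, the difference was 1.39 ± 0.32 (edgeR FDR 0.0126, called), beside 1.23% of all genes called as higher. With the pool of mice as the block it was 1.36 ± 0.38 (FDR 1). Without sham glia replicate 1 it was 1.01 (edgeR FDR 1). For *Tet3* the difference between the cell types was 0.42 ± 0.49, so that a larger effect in neurons than in glia was not shown.

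The wider list of 46 genes of the methylation machinery, of which 45 were tested, was led by the *Gadd45* genes, whose stress-induced proteins are linked to DNA repair and active demethylation. *Gadd45g* was upregulated in neurons, from 10.1 to 26.3 CPM in sham to 65.9 to 108 CPM in kainate neurons (log2 fold change 2.29 ± 0.47, edgeR FDR 0.204). It was the only one of the 45 called there, beside the 0.157% of all genes. This call was lost without any one of kainate neurons replicates 1, 2 and 3, sham neurons replicates 2 and 3 and kainate glia replicate 2, where 0 were called. *Gadd45b* was upregulated in glia, from 4.12 and 9.33 CPM in sham to 118 to 525 CPM in kainate glia (5.26 ± 0.85, edgeR FDR 0.0763), as was *Gadd45g*, from 6.74 and 14.6 CPM to 61.6 to 144 CPM (3.18 ± 0.58, FDR 0.142). The 2 calls in glia became 1 without kainate neurons replicate 2, sham neurons replicate 3, kainate glia replicate 1 or kainate glia replicate 2. None was left when replicate 1 of the sham glia was dropped (0 calls). With the replicate block, 5 genes were higher and 0 lower in neurons, and 4 higher and 2 lower in glia. In this fit 3.19% of all genes were called as higher and 1.9% as lower in neurons, and 2.93% as higher and 2.86% as lower in glia. The genes of the wider list called as higher in neurons with the block included *Gadd45b*, *Gadd45g*, *Mbd2* (0.86) and *Cxxc5*. In glia they were *Gadd45a* (1.87), *Gadd45b*, *Gadd45g* and *Mbd2* (0.86), and those called as lower *Cxxc4* (-0.79) and *Idh2* (-0.59). In the interaction 0 of 45 were called, and with the block *Gadd45a* (-1.49) and *Gadd45b* (-2.74) had the smaller log2 fold change in neurons, beside 0.702% of all genes called as lower; with the pool of mice as the block 0 of 45 were called. The genes called only with the block are named here after their values were seen.

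The last comparison set neurons against glia over both treatments. Here 6 of 9 members were called, 4 higher and 2 lower in neurons, beside 16.8% of all genes called as higher and 20.4% as lower. The median log2 fold change was 0.40 over the members and -0.47 over all genes. *Mbd1*, a reader on chromosome 18, was at 122 to 146 CPM in the 6 neuron libraries and 58.8 to 100 CPM in the 5 glia libraries. The libraries did not overlap, which 8.92% of all genes shared in this direction. Its log2 fold change was 0.78 ± 0.25 (edgeR FDR 0.0453). *Dnmt3b*, the least abundant writer, lies on chromosome 2 from 153649450 to 153687730 on the plus strand, and was higher in glia, at 7.59 to 16.4 CPM against 3.06 to 8.06 CPM in neurons (-1.07 ± 0.34, edgeR FDR 0.0456). The highest neuron library overlapped with the lowest glia libraries, while in each of the 5 pools that gave both fractions *Dnmt3b* was lower in neurons by log2 differences of -1.51 to -0.92.

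*Tet2* (0.61 ± 0.31, edgeR FDR 0.212), *Dnmt3a* (0.49 ± 0.26, FDR 0.231) and *Tet3* (0.46 ± 0.25, FDR 0.24) were called as higher in neurons close to the threshold. With RLE size factors in place of TMM, *Dnmt3a* (0.44, edgeR FDR 0.269) and *Tet3* (0.42, FDR 0.282) were not called. *Tet1* was called as lower (-0.57 ± 0.24, edgeR FDR 0.139), but this lay in the sham libraries: it was -1.27 there (FDR 0.0415) and 0.13 in the kainate libraries (FDR 0.826). The *Tet1* call was lost with RNA input as a covariate (-0.39, edgeR FDR 0.345) and without both libraries of low input (-0.32, FDR 0.424). *Tdg* (0.40 ± 0.26), *Dnmt1* (0.13 ± 0.23) and *Uhrf1* (-0.48 ± 0.44) were not called. The 6 calls became 2 without kainate neurons replicate 1 and 3 without any one of kainate neurons replicate 2, sham neurons replicates 1 and 2, sham glia replicate 3 and kainate glia replicate 3. Of the single genes, *Dnmt3a* was called in 1 of the 11 fits that left out a library, *Tet3* in 2, *Tet2* in 4, *Tet1* in 9, and *Mbd1* and *Dnmt3b* in all 11. In the sham libraries only, however, *Mbd1* (0.73, edgeR FDR 0.347) and *Dnmt3b* (-0.87, FDR 0.439) were not called. With the pool of mice as a block, the same 6 genes and *Uhrf1* (-0.60 ± 0.27, edgeR FDR 0.11) were called, beside 24.9% of all genes as higher and 34.8% as lower.

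**Figure D4:**
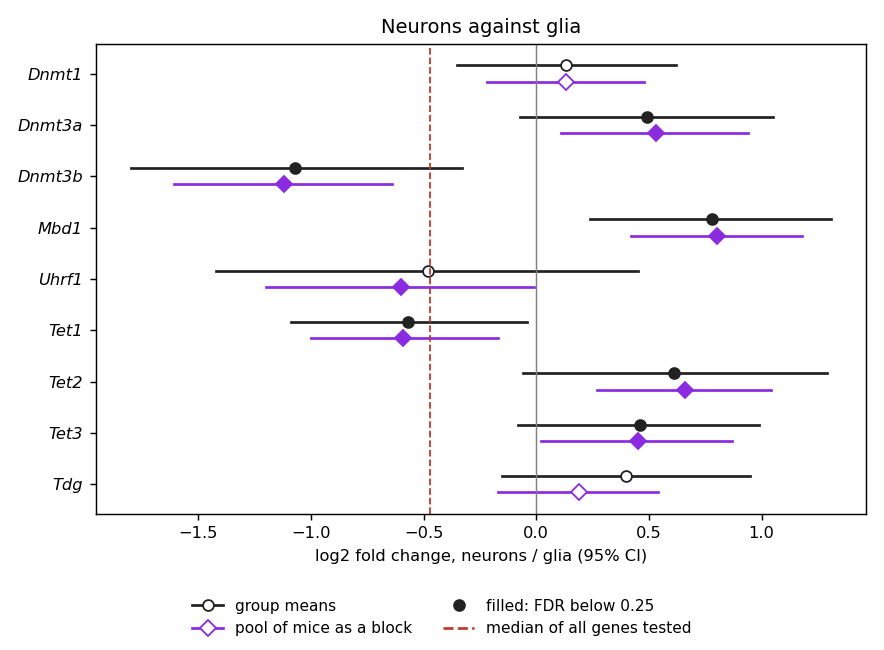
Log2 fold change of neurons over glia, over both treatments, with its 95% confidence interval for the 9 genes, from edgeR fits with the group means alone (circles) and with the pool of mice as a block (diamonds); filled symbols have an FDR below 0.25 and the dashed line is the median of all genes tested (-0.47). *Mbd1* (0.78) and *Dnmt3b* (-1.07) lay farthest from 0.

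Of the wider list, 13 genes were called as higher and 7 as lower in neurons, and with the pool as a block 23 and 9. These are 20 and 32 of 45 genes, where 37.2% and 59.7% of all genes were called in either direction. Among the 8 with the smallest p were the cytidine deaminase genes *Apobec3* (log2 fold change -3.31) and *Apobec1* (-2.98), the poly(ADP-ribose) polymerase gene *Parp1* (1.47), *Mbd5* (1.23), *Cxxc1* (1.23), which encodes a protein that binds unmethylated CpG sites, the isocitrate dehydrogenase gene *Idh1* (-1.56), and *Usp7* (1.09), whose product removes ubiquitin from DNMT1 and UHRF1. *Apobec3* was at 32.8 to 80.0 CPM in glia and 3.82 to 7.34 CPM in neurons, while *Parp1* was at 131 to 199 CPM in neurons and 41.1 to 66.6 CPM in glia. Since DNMT1 and UHRF1 act at replication forks, 16 genes of DNA replication and mitosis were counted beside them. None was called between kainate and sham in either cell type or in the interaction, also with the block. Between the cell types, 2 were called as higher and 6 as lower in neurons, beside 16.8% and 20.4% of all genes.

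Likeness was measured as the root mean square difference in centred log2 CPM over the 11 libraries. The pattern of *Tet3* was nearest to those of *Ago2* (0.192) and *Zfp451* (0.196), and that of *Tet1* to those of *Fggy* (0.238) and *Sfxn5* (0.255), where the median over all genes was 1.06 for both. *Tet2* was nearest to *Atf6* (0.0798) and *Eral1* (0.0848), *Mbd1* to *Rbm33* (0.0848) and *Cdc23* (0.0927), and *Dnmt3a* to *Tbc1d8* (0.103) and *Smarcal1* (0.11). *Dnmt1* was nearest to *Nup98* (0.119) and *A130012E19Rik* (0.126), *Tdg* to *Nup214* (0.154) and *Kmt2b* (0.158), *Dnmt3b* to *Lipk* (0.194) and *Gm44573* (0.219), and *Uhrf1* to *Gm43677* (0.246) and *Gm15512* (0.264). The libraries differed in depth and in TMM factor, from 0.7 to 1.68, and genes of like level share these differences.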

How the data were processed

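Total RNA of sorted nuclei was amplified with an oligo(dT) kit that does not mark strand, and sequenced as mRNAseq. The authors trimmed reads with Trim Galore 0.4.3, aligned them to mm10 with Rsubread and counted uniquely mapped reads per gene with featureCounts on GENCODE M16. The deposited values are these raw counts of 11 libraries. Which library ran on which of the 2 sequencers is not given in the sources used here. The bisulfite samples were not used here.

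Genes without a symbol (105) were left out. Counts were filtered with filterByExpr (minimum count 10, minimum total 15), scaled by TMM and tested with edgeR 4.0.16 (quasi-likelihood, legacy method) in R 4.3.3, in 1 model of 4 group means, with Benjamini-Hochberg adjustment over the 40714 genes of a comparison. SEs were derived from F, and 95% CIs from the total degrees of freedom (7 residual, 6.76 prior). The study analysed neurons and glia separately, which was run as an alternative. Exon lengths came from GENCODE M21. Deviations from the group means correlated between kainate and sham libraries of the same number, at 0.643, 0.161 and 0.491 in neurons and 0.76 and 0.787 in glia. On these values the numbers were taken as pairs and a replicate block was fitted. The 2 sham glia libraries deviate from their mean by equal and opposite amounts, so the 2 glial values are not independent. Fractions of the same pool correlated at 0.24 to 0.668. No 2 libraries of a group agreed within sampling noise. Replicates were pools of mice. The fits were also run on counts simulated without replicate effects and with changes larger than those of *Tet3* and *Tet1*. That run could not test the replicate block for differences of this size. *Dnmt3a*, *Tet2* and *Tdg* share 133, 43 and 367 exon bases with genes on the other strand, which cannot be told apart. Named genes were all 9 members, the genes of the wider list called in a comparison (at most the 8 with the smallest p), and the 2 genes most like each member. One gene of the wider list is not reported here. The members and lists were chosen with earlier results of these data known. Alternatives were RLE size factors, other filters, DESeq2 1.42.0, the newer quasi-likelihood method, a robust fit, an FDR below 0.05, separate fits, replicate blocks, a covariate for RNA input, cell type differences within sham or kainate libraries, and removal of single libraries or of both low-input ones.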

Additional observations from a re-analysis of the deposited data

How the results depend on the processing

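The log2 fold changes of *Tet3* in neurons (0.79 to 0.95, FDR 0.000514 to 1) and *Tet1* in glia (-1.54 to -0.85, FDR 0.000592 to 1) kept their direction in all 21 alternatives. Leaving out a library of the other cell type could hardly move either estimate. Allowing for the low-input libraries, which were glia, could hardly move that of *Tet3*. Both genes were called with the replicate block and by DESeq2. The replicate block gave 1 member called in neurons, in glia and in the interaction, 5, 6 and 2 genes of the wider list there, and 32 between the cell types, as did the pool block; the other calls of members were not changed by it, except that *Uhrf1* under either block and *Tdg* under the block within cell types were also called between the cell types. DESeq2 called 1 member in neurons and 1 in glia, beside 1.66% and 1.43% of the 21722 and 17780 genes to which it gave an adjusted p. It called 2 of the wider list in neurons, as did the stricter filter, the newer method and the separate fits. These 3 settings called 0.468%, 0.334% and 1.29% of all their genes in neurons. At an FDR below 0.05, the wider list gave 0 in neurons, 0 in glia and 10 between cell types, and the members 2 between cell types. The members called between cell types were 2 without a filter, 1 in sham libraries only and 2 in kainate libraries only, where the wider list gave 8 in sham libraries only. With RNA input as a covariate the wider list gave 0 in neurons and 1 in glia, and without both low-input libraries or in separate fits 0 in glia. Leaving out 1 library gave 0 to 2 of the wider list in neurons, 0 to 3 of it in glia, and 2 to 6 members between cell types. A member was called in glia only in a fit that kept a single sham glia library.

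The called difference of *Tet1* between the cell types changed sign in the kainate libraries only (0.13). The other changes of sign were of uncalled differences. In neurons these were *Dnmt1* without a filter (-0.04) and *Tdg* with the block (0.07), and with 1 library left out *Dnmt1* (-0.09 to 0.11), *Dnmt3b* (-0.44 to 0.23), *Tet1* (-0.11 to 0.34), *Tet2* (-0.01 to 0.38) and *Tdg* (-0.20 to 0.42). In glia, leaving out the low-input libraries gave *Dnmt3a* 0.06, *Dnmt3b* -0.09, *Mbd1* 0.41 and *Uhrf1* -0.90. *Mbd1* was 0 in separate fits and 0.02 with the block or the input covariate, and *Uhrf1* 0 with RLE factors or DESeq2 and -0.29 with the block. With 1 library left out, *Dnmt3a* ranged from -0.64 to 0.20, *Dnmt3b* from -0.07 to 0.74, *Tet2* from -0.39 to 0.90, *Tdg* from -0.04 to 0.21, *Mbd1* from -0.38 to 0.36 and *Uhrf1* from -0.46 to 1.03. In the interaction, *Tet2* was -0.03 with the block, -0.06 with the covariate and -0.74 without the low-input libraries, *Tdg* 0.29 with the pool block, and without the low-input libraries *Dnmt3b* was 0.04 and *Mbd1* -0.35. With 1 library left out the interaction of *Dnmt3a* was -0.13 to 0.71, of *Dnmt3b* -0.79 to 0, of *Tet2* -0.67 to 0.62, of *Tdg* -0.34 to 0.29, of *Mbd1* -0.29 to 0.39 and of *Uhrf1* -0.64 to 0.86. Between cell types, the kainate libraries only gave *Dnmt1* -0.01, and leaving out 1 library gave *Dnmt1* -0.15 to 0.23 and *Uhrf1* -0.74 to 0. The causes were not tested. Sham glia had 2 libraries, which limits each glial comparison.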

Other observations

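The 4 other tested genes that lie within the span of *Tet1* and *Tet3* without sharing an exon base were read as further values of these loci; they were looked at after the values of *Tet1* and *Tet3* were known. *Gm48353*, on the strand of *Tet1*, was at 0.564 to 1.93 CPM in kainate glia and at 2.78 and 6.33 CPM in sham glia (log2 fold change -2.04 ± 0.74, edgeR FDR 1; -2.57 with the replicate block, FDR 0.00578). *5430434F05Rik*, on the strand of *Tet3*, was at 7.04 to 13.9 CPM in kainate neurons and 3.89 to 9.12 CPM in sham neurons (0.67 ± 0.47, edgeR FDR 1; 0.70 with the block, FDR 0.336). *Mir6374*, also on that strand, was at 2.99 to 4.43 CPM against 1.41 to 3.35 CPM (0.63 ± 0.57, edgeR FDR 1; 0.68 with the block, FDR 0.725). *B230319C09Rik*, on the strand opposite to *Tet3* and with its start just upstream of the RefSeq start of that gene, was at 1.15 to 2.39 CPM in kainate neurons and 0.134 to 1.09 CPM in sham neurons (1.47 ± 0.83, edgeR FDR 1; 1.61 with the block, FDR 0.23). In the other cell type, the log2 fold change was 0.79 for *5430434F05Rik*, 0.45 for *Mir6374* and 1.08 for *B230319C09Rik* in glia, and 0.94 for *Gm48353* in neurons, each with an edgeR FDR of 1. *Gm48353*, *Mir6374* and *B230319C09Rik* had 2 to 174 reads per library and *5430434F05Rik* 46 to 545. Reads from unspliced RNA of the host gene cannot be told apart from those of these genes on either strand, since the libraries carry no strand.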
